A study of Homo sapiens with 12 samples.

Results

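Expression of 8 connexin and pannexin genes was followed across all libraries of the series: the connexin genes GJA1, GJA3, GJB2, GJB5, GJB6 and GJC1, and the pannexin genes PANX1 and PANX2. They were taken by symbol and are 8 of the 61541 genes in the count table. The series is bulk RNA sequencing of A549, an established human lung adenocarcinoma cell line, in 12 libraries that form 4 groups of 3. All groups carried a guide, received no treatment and were collected 14 days after transduction. Lone control cells carried a non-targeting guide labelled gNTC1, and co-cultured control cells carried the same guide and were grown in co-culture. Lone knockout cells (TS-KO) were made with Cas9 directed at TYMS, the gene for thymidylate synthase, and co-cultured knockout cells were TS-KO cells grown in co-culture. According to the series' design text, parental A549 cells were present in the co-culture of TS-KO cells, which proliferated again. Which cells accompanied the control cells, whether and how the 2 kinds of cell were parted before RNA isolation, and whether the knockout was a pool or 1 clone are not stated. Nothing in the labels says that replicates were separate cultures, so every p-value below measures the spread between these libraries, which may be technical.

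Connexins are membrane proteins that assemble as rings of subunits into hemichannels. Hemichannels of neighbouring cells dock to form gap junctions, through which ions, nucleotides and other small metabolites pass directly from one cytoplasm to the next. Pannexins form channels of similar shape that mostly open to the outside of the cell, and are best known for the release of ATP. Thymidylate synthase makes a DNA precursor, and the co-cultured knockout cells were grown with cells that retain the enzyme, so these genes bear on the contact route by which metabolites can move between cells. RNA levels do not report on assembled channels or on their opening.

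Levels are given as CPM (read counts relative to the size of the library), scaled between libraries by the trimmed mean of M-values (TMM). Levels of different genes are set side by side per length, as CPM per kb of exon. Exceptions are sums given in CPM and values that the text gives without division by length. Differences were tested with edgeR's quasi-likelihood test and Benjamini-Hochberg adjustment over the 16768 genes that passed a filter on low counts, with 0.05 as the threshold for a call. Library totals ran from 14921371 to 35723762 counts. In the shallowest library 1 CPM is 14.9 counts before TMM scaling, and after it 3 counts are 0.186 CPM. TYMS RNA averaged 95.4 ± 5.27 CPM (SD, n = 3) in the lone control, 93.4 ± 2.67 in the co-cultured control, and 20.9 ± 0.547 and 11 ± 0.36 in the knockout grown alone and in co-culture, lower in every knockout library than in every control library. ENOSF1 and TYMSOS share exonic bases with TYMS, so part of its count may be theirs.

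The libraries labelled control go against a known trait of their cell line. A549 is known to have lost CDKN2A, CDKN2B and MTAP by deletion, yet these 3 genes summed to between 154 and 166 CPM in the lone control and between 122 and 142 in the co-cultured control. The lone knockout held 0.548 to 0.647 CPM, with CDKN2A and CDKN2B at 0 counts, and the co-cultured knockout 0.302 to 0.745 CPM, with CDKN2B at 0. A list of 6 genes for which A549 is known for high levels (AKR1B10, AKR1C1, AKR1C2, ALDH1A1 and ALDH3A1 among them) summed to 5851 to 6834 CPM in the lone control, 5186 to 6715 in the co-cultured control, 12230 to 13360 in the lone knockout and 11764 to 12705 in the co-cultured knockout. All 6 epithelial markers (EPCAM, KRT7, KRT8, KRT18, KRT19 and CDH1) were counted in every group, with sums between 8358 and 17778 CPM. Within these sums the markers split. In the lone control and lone knockout EPCAM averaged 104 and 0.62 CPM, KRT19 1740 and 255, and CDH1 55.8 and 17.5. KRT8 averaged 7168 and 3726 CPM, KRT18 3056 and 2262, and KRT7, which was higher in the knockout, 1910 and 5952. Within this design an effect of the guide and a difference in cell origin between the libraries labelled control and knockout cannot be told apart, and this holds for every knockout comparison below. Nor can fewer cells of a type be told apart from less RNA per cell in bulk samples.

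One library stood apart within its group. Without co-cultured knockout replicate 3, the number of genes called between co-cultured and lone knockout was 5680, against 1907 with it. Calls for co-culture of the knockout that changed without that library are given both ways for GJA1, GJC1 and ZMYM2.

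In the lone knockout 1 of the 7 tested genes, GJA1, was higher than in the lone control, 4 (GJA3, GJB2, GJB5 and GJC1) were lower, and PANX1 and PANX2 did not pass the test. The same comparison called 56.6% of all genes tested, 28.0% higher and 28.6% lower, and a share of 5 of 7 stands near that background. The median log2 fold change was -0.53 over the 7 genes and 0.087 over all genes. The eighth gene, GJB6, a connexin of skin and inner ear, had 0 counts in all 12 libraries. That allows up to 0.186 CPM in the library with the highest such limit and up to 0.0895 CPM in the one with the lowest, at 3 counts per library and covering counting error only.

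**Figure D1:**
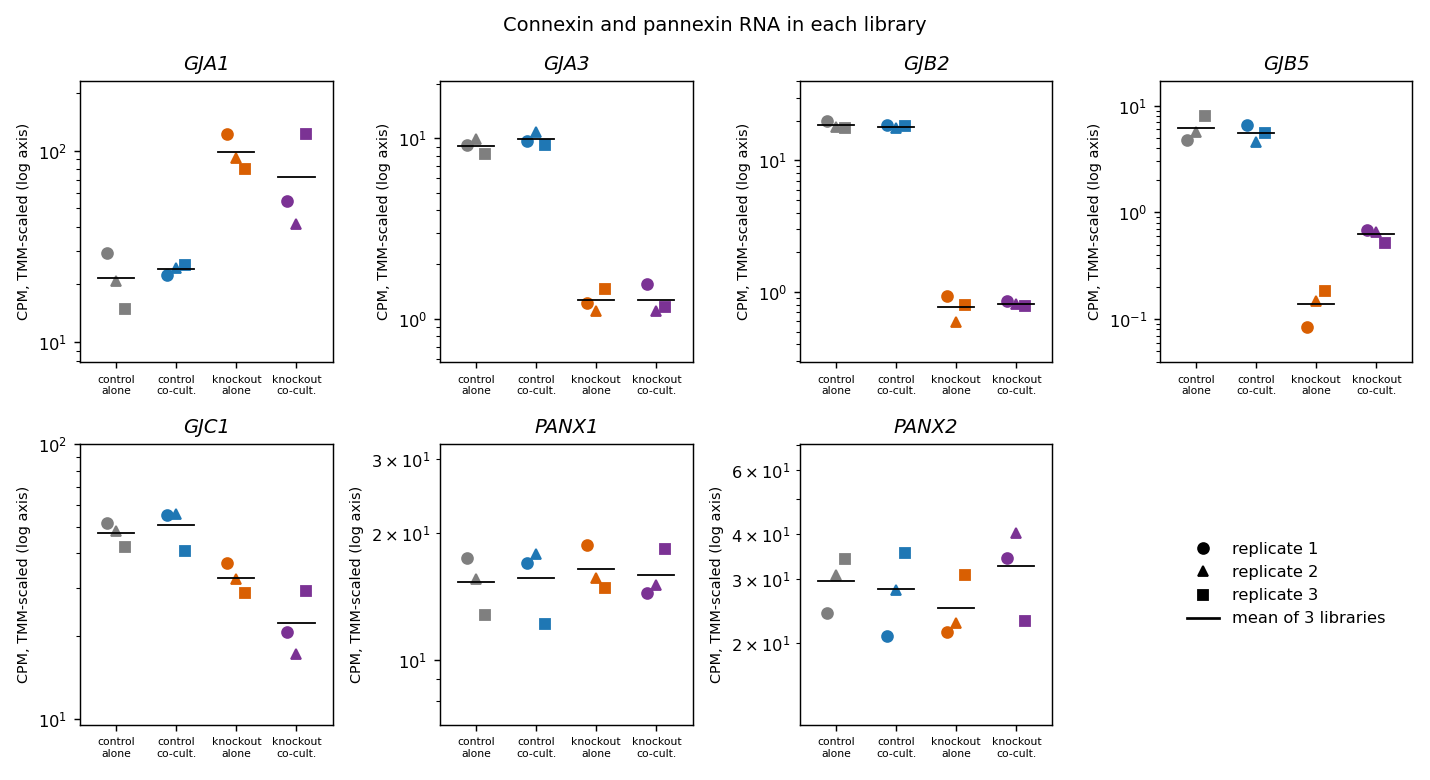
CPM (TMM-scaled, log axis) of the 7 counted genes in each library, by group, with circles, triangles and squares for replicates 1, 2 and 3 and a bar for the mean of 3 libraries. GJA1 lies higher, and GJA3, GJB2 and GJB5 lie lower, in all 6 knockout libraries than in all 6 control libraries, while PANX1 and PANX2 overlap between all groups.

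GJB2 encodes Cx26, a connexin of many epithelia whose loss is a common cause of inherited deafness. Its level was 19.8, 18.1 and 17.5 CPM in lone control replicates 1 to 3 and 18.5, 17.6 and 18.2 CPM in the co-cultured control. In the lone knockout it was 0.931, 0.597 and 0.791 CPM, and in the co-cultured knockout 0.862, 0.805 and 0.784 CPM. Control libraries were thus closely alike, and every knockout library sat far below them, at 12 to 27 counts. GJB2 fell by 4.56 on the log2 scale in the lone knockout (SE 0.22, 95% interval -5.03 to -4.09, edgeR adjusted p = 4.21e-09), a 23.6-fold difference.

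GJA3 encodes Cx46, best known from the fibre cells of the eye lens. Its lone control libraries held 9.23, 9.86 and 8.2 CPM, its co-cultured control libraries 9.68, 10.9 and 9.21 CPM, its lone knockout libraries 1.23, 1.1 and 1.46 CPM and its co-cultured knockout libraries 1.55, 1.1 and 1.16 CPM. The knockout and control libraries did not overlap. GJA3 fell by 2.85 on the log2 scale in the lone knockout (SE 0.23, edgeR adjusted p = 4.3e-07), or 7.21-fold.

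GJB2 and GJA3 are neighbours with GJB6 on the minus strand of chromosome 13 (GRCh38, GENCODE 29 annotation). GJA3 spans chr13:20138255-20161049, GJB2 chr13:20187463-20193010 and GJB6 chr13:20221962-20232395. Of 2 neighbours that passed the filter, CRYL1, which lies 171271 bases beyond the cluster, fell by 0.93 in the lone knockout (SE 0.19, adjusted p = 0.00114). ZMYM2, 46426 bases away on the other side, was higher by 1.30 (SE 0.47, adjusted p = 0.0303), and it was not called when 1 of 4 libraries was left out, lone control replicate 2 or 3 or lone knockout replicate 1 or 2 (adjusted p 0.061 to 0.119). With GC offsets ZMYM2 was higher by 0.67 (adjusted p = 0.0232). Between co-cultured and lone knockout ZMYM2 did not pass (-1.16, adjusted p = 0.11), but was called without co-cultured knockout replicate 3 (-1.99, adjusted p = 0.000981), by DESeq2 (0.0378), without a filter (0.00838) and with GC offsets (-0.76, adjusted p = 0.022).

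The promoters of these genes are printed because GJB2 and GJA3 fell together while GJA1 rose. Each is the 250 bases before the RefSeq start and the start base itself, on GRCh38.p14, 5′ to 3′ on the gene's own strand, with motif matches in capitals. GJB2 is at chr13:20192938-20193188 and GJA3 at chr13:20161052-20161302, both on the minus strand, and GJA1 is at chr6:121435396-121435646 on the plus strand.
GJB2: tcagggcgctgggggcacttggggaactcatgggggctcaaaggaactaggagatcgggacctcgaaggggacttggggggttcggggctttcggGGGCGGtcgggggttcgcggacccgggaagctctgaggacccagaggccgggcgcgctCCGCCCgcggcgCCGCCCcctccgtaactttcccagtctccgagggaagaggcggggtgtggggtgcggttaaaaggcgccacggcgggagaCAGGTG
GJA3: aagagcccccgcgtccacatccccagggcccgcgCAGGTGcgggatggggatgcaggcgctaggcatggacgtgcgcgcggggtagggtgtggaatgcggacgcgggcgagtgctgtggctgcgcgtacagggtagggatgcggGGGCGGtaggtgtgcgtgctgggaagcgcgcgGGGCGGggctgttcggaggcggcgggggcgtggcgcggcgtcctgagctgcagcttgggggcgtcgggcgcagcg
GJA1: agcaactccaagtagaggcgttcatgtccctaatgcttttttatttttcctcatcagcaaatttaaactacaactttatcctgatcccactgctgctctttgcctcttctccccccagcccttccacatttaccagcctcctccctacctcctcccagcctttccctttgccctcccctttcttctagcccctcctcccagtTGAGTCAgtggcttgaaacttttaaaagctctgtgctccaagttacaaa
A set of 5 motifs was searched on both strands, and none of the matches overlapped another. GGGCGG, the GC box read by SP1 and KLF factors, occurred 3 times for GJB2 and 2 times for GJA3 but not for GJA1, and is present in 42.7% of 35116 RefSeq promoter windows of the same length. CACCTG, the E-box read by ZEB and SNAI factors, occurred once for GJB2, from base -5 to base 0 counted from the start, and once for GJA3, and is in 17.6% of windows. TGANTCA, an AP-1 site, occurred in the GJA1 window only, from -48 to -42, and is in 6.7% of windows. TATAAA (10.8% of windows) and AACNGGTT, the site of GRHL factors (1.5%), matched none of the 3. The windows of GJB2 and GJA3 were rich in G and C, at 70.1% and 74.9%, against a median of 58.2% over all windows and 47.8% for GJA1. Their observed to expected CpG ratios were 0.86 and 1.09, against a median of 0.56 and a ratio of 0.10 for GJA1. These matches describe the printed letters and were not tested as sites. The RefSeq table also held GJB6 and PANX1, 5 of the 8 genes in all.

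GJB5, a connexin known from keratinocytes and placenta, lies on the plus strand of chromosome 1 at chr1:34755047-34758512 and was close to the floor of detection in the lone knockout. It had 77, 91 and 146 counts in the lone control and 2, 3 and 3 in the lone knockout, or 4.77, 5.61 and 7.98 against 0.0847, 0.149 and 0.183 CPM. All lone knockout libraries lay far below all control libraries. With so few counts the size is best given by the pooled ratio, 46.6-fold lower in the lone knockout with an exact interval of 23.4 to 109 that covers counting error only. The fitted difference, whose size depends on the prior count of the fit, was -5.46 (SE 0.37, edgeR adjusted p = 8.18e-08).

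GJC1 encodes Cx45, known from the conduction system of the heart and from smooth muscle. The lone control held 51.5, 48.1 and 42.2 CPM and the lone knockout 37, 32.2 and 28.7 CPM. The ranges did not overlap, but the gap was small. GJC1 fell by 0.53 (SE 0.20, 95% interval -0.96 to -0.11, edgeR adjusted p = 0.0339), a 1.45-fold difference. The call was lost when libraries were scaled by their totals alone (adjusted p = 0.241) and without lone control replicate 1 (0.0821) or 2 (0.0767) or lone knockout replicate 2 (0.0806) or 3 (0.099), while correction for GC content, described below, gave a fall of 1.06 (adjusted p = 2.18e-07).

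GJA1 encodes Cx43, the most widely expressed connexin. Its level was 29.1, 20.8 and 14.9 CPM in the lone control, 22.4, 24.5 and 25.4 in the co-cultured control and 122, 91.6 and 79.8 in the lone knockout. The co-cultured knockout libraries held 54.2, 41.3 and 122 CPM. The lowest knockout library was above the highest control library. GJA1 rose by 2.18 in the lone knockout (SE 0.36, 95% interval 1.40 to 2.96, edgeR adjusted p = 0.000226), a 4.54-fold difference. No other of the 8 genes was called higher there.

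PANX1, the ATP release channel that caspases open during apoptosis, held 17.5, 15.6 and 12.8 CPM in the lone control and 18.8, 15.7 and 14.8 CPM in the lone knockout. The groups overlapped, and the difference of 0.10 had an interval of -0.32 to 0.53 (edgeR adjusted p = 0.672). PANX2, a relative found largely on membranes inside the cell, held 24.3, 30.8 and 34.1 CPM in the lone control and 21.5, 22.8 and 30.8 CPM in the lone knockout. Its difference of -0.25 had an interval of -0.78 to 0.28 (adjusted p = 0.399). The result for PANX2 depended on a correction for GC content, with which it was higher by 0.89 in the lone knockout (adjusted p = 1.83e-06) and by 0.70 in the co-cultured knockout (adjusted p = 1.87e-05).

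That correction bears on several of these genes because counts followed the GC content of transcripts differently in different libraries. At the GC content of the PANX2 transcript, 66.3%, the smoothed deviation of each library from the mean of all libraries, taken over all genes, stood at 0.28, 0.59 and 0.85 on the log2 scale in lone control replicates 1 to 3, and at -0.78, -0.58 and -0.34 in the lone knockout. At that of GJA1, 40.6%, it stood at 0.087, -0.25 and -0.48 in the lone control and at 0.58, 0.36 and 0.21 in the lone knockout. The lone knockout thus held relatively more of transcripts poor in G and C and less of those rich in them. With each library's trend taken out, GJA1 was higher by 1.60 (adjusted p = 2.09e-06), GJA3 fell by 3.20, GJB2 fell by 4.95 and GJB5 fell by 5.02, and all 4 were still called. Because the trend differed between the lone control and the lone knockout, taking it out also alters the differences between these groups. A technical trend and a difference between the cells cannot be told apart here, which limits the GC-corrected values, that of PANX2 included.

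**Figure D2:**
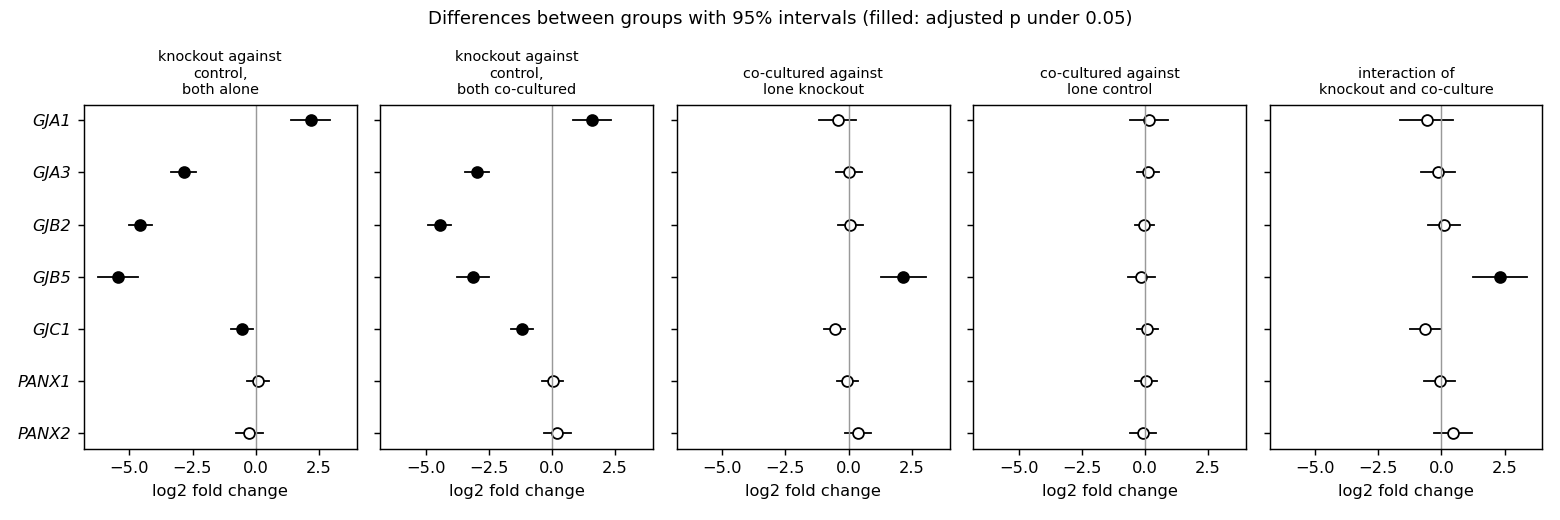
Log2 fold changes (horizontal axis) of the 7 tested genes (rows) with 95% intervals in the 4 comparisons of groups and their interaction, filled where the edgeR adjusted p was under 0.05. GJA1 stands right of 0 and GJA3, GJB2, GJB5 and GJC1 left of it in both knockout comparisons, and GJB5 alone is filled between co-cultured and lone knockout.

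Between co-cultured knockout and co-cultured control the calls fell on the same 5 genes in the same directions, 1 higher and 4 lower of 7. That comparison called 49.4% of all genes, 24.1% higher and 25.3% lower. It uses other libraries than the lone comparison, yet the question of cell origin is the same. GJB2 fell by 4.46 (SE 0.21, edgeR adjusted p = 4.46e-09), GJA3 by 2.97 (SE 0.23, adjusted p = 2.69e-07), GJB5 by 3.14 (SE 0.29, adjusted p = 1.53e-06) and GJC1 by 1.18 (SE 0.20, adjusted p = 0.000302). GJA1 rose by 1.59 (SE 0.35, adjusted p = 0.00222), or 3.01-fold, and by 0.99 (adjusted p = 0.0122) without co-cultured knockout replicate 3. PANX1 (0.026, interval -0.40 to 0.45) and PANX2 (0.21, interval -0.31 to 0.73) did not pass. PANX1 held 17, 17.9 and 12.2 CPM in the co-cultured control and 14.4, 15.1 and 18.4 in the co-cultured knockout. PANX2 held 21, 28 and 35.4 CPM in the co-cultured control and 34.4, 40.3 and 23.1 in the co-cultured knockout. The groups overlapped for both genes.

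None of the 7 genes was called between co-cultured and lone control, where edgeR called 0% of all genes. At an unadjusted p under 0.05 there were 540 of 16768 genes, and DESeq2 also called 0. For these 7 genes the differences ran from -0.15 for GJB5 (interval -0.69 to 0.39) to 0.16 for GJA1 (interval -0.59 to 0.92).

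Between co-cultured and lone knockout 1 of the 7 genes, GJB5, was called, and it was higher in co-culture, where 11.4% of all genes were called and 5.97% were called higher. GJB5 had 16, 22 and 14 counts in the co-cultured knockout, or 0.69, 0.656 and 0.522 CPM, against the 2, 3 and 3 counts of the lone knockout and 6.53, 4.55 and 5.5 CPM in the co-cultured control. The groups did not overlap, but both stayed far below the control. The pooled ratio was 4.68, with an exact interval of 2.21 to 11.4 for counting error alone, and the fitted difference was 2.17 (SE 0.42, edgeR adjusted p = 0.00673). Without lone knockout replicate 1 it was 1.88 with an adjusted p of 0.0504, and with GC offsets 1.84 with an adjusted p of 0.00478.

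Relative to the lone control, GJB5 stood at 2.27% in the lone knockout and 10.2% in the co-cultured knockout. TJP3, a tight junction scaffold, stood at 0.801% and 3.17%. GJB2 stood at 4.18% and 4.42%, and GJA3 at 13.9% and 14%. Genes that were higher in the libraries labelled control did not all follow 1 course. EPCAM, an epithelial adhesion molecule, was at 0.597% and 0.31%, MTAP at 0.977% and 0.791%, and CDKN2A at 0% and 0.04%, for CDKN2A from 4 counts in 1 of the 3 co-cultured libraries. KRT19, an epithelial keratin, averaged 1740 CPM in the lone control, 255 in the lone and 446 in the co-cultured knockout (0.81 between the last pair, edgeR adjusted p = 0.0521). CDH1, or E-cadherin, averaged 55.8, 17.5 and 23.9 CPM in the same order (0.45, adjusted p = 0.126). For both, the co-cultured and lone knockout libraries did not overlap. Fibroblast markers (6 genes) summed to 21.8 to 24.5 CPM in the lone and 12.8 to 16.7 CPM in the co-cultured knockout, endothelial markers (4 genes) to 0.0847 to 0.398 and 0.302 to 0.634 CPM, and blood markers (5 genes) to 0.913 to 0.946 and 2.76 to 4.26 CPM. Of these markers 3 of 6, 1 of 4 and 1 of 5 were above 3 counts in a library of the lone knockout, and 2 of 6, 3 of 4 and 1 of 5 in the co-cultured knockout. DCN had 0 counts in the lone knockout, KDR and HBB in the co-cultured knockout, and CD3E in both. COL1A1 made up most of the fibroblast sum, at means of 22.5 CPM in the lone and 14.4 in the co-cultured knockout. CD14 made up most of the blood sum, at means of 0.866 and 3.25 CPM (1.91, edgeR adjusted p = 0.00563). In the lone control CD14 averaged 4.76 CPM, and the blood sum ran from 3.7 to 6.07 CPM. The part of these cell types in the result was not tested.

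The other tested genes did not pass between co-cultured and lone knockout. GJA1 differed by -0.43 (interval -1.17 to 0.31, edgeR adjusted p = 0.414), with 2 co-cultured libraries below the lone knockout and 1 level with its highest library. Without co-cultured knockout replicate 3 it fell by 1.03 (adjusted p = 0.0048). The trend on GC content at GJA1 stood at 0.42 in that library and at -0.13 and -0.46 in co-cultured replicates 1 and 2, and with GC offsets the difference of GJA1 was -0.096 (adjusted p = 0.705). GJC1 held 20.7, 17.2 and 29.1 CPM in the co-cultured knockout, a difference of -0.55 (SE 0.20, adjusted p = 0.0882), and was called by DESeq2 (adjusted p = 0.0451) and without the same library (-0.78, adjusted p = 0.00464) but not with GC offsets (-0.26, adjusted p = 0.0621). GJB2 (0.070, interval -0.42 to 0.56), GJA3 (0.009, interval -0.50 to 0.52), PANX1 (-0.042, interval -0.47 to 0.38) and PANX2 (0.38, interval -0.14 to 0.91) had differences whose intervals include 0.

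**Figure D3:**
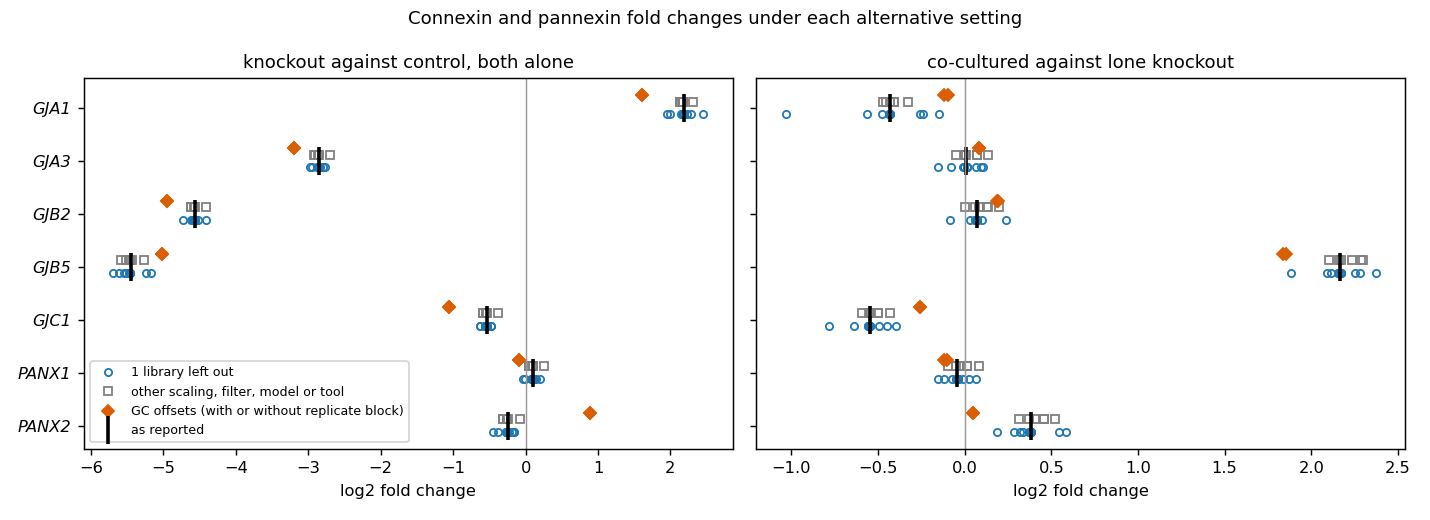
Log2 fold changes (horizontal axis) of the 7 tested genes (rows) as reported (black bar), with 1 library left out (circles), under other scalings, filters, models or tools (squares) and with GC offsets (diamonds), for the knockout alone on the left and co-culture of the knockout on the right. PANX2 crosses 0 only with GC offsets on the left, and the farthest circle for GJA1 on the right, at -1.03, is the fit without co-cultured knockout replicate 3.

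Whether the difference that went with co-culture was itself different in knockout and control cells was tested as an interaction. That test called 1 of the 7 genes and 1.80% of all genes. GJB5 had an interaction of 2.32 (SE 0.49, edgeR adjusted p = 0.0321). Leaving out any of 8 libraries lost the call, with adjusted p between 0.0594 and 0.131: lone control replicates 2 and 3, co-cultured control replicate 2, the 3 lone knockout libraries, and co-cultured knockout replicates 1 and 2. GJC1 (-0.64, adjusted p = 0.244) and GJA1 (-0.59, adjusted p = 0.494) did not pass, and both were called without co-cultured knockout replicate 3 (GJC1 -0.88, adjusted p = 0.0202, and GJA1 -1.19, adjusted p = 0.0192).

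Per length, PANX2 had the highest mean of the 8 genes in control cells, at 9.58 ± 1.61 CPM per kb in the lone and 9.06 ± 2.33 in the co-cultured control. GJB2 (7.26 ± 0.468), GJA1 (6.32 ± 2.09), PANX1 (5.53 ± 0.862), GJC1 (5.46 ± 0.541) and GJB5 (4.52 ± 1.23) followed in the lone control, and each overlapped the next in range. GJA3, at 1.75 ± 0.161, lay below them. In the lone knockout GJA1 led at 28.6 ± 6.37 CPM per kb, above PANX2 (8.08 ± 1.63), PANX1 (5.93 ± 0.743) and GJC1 (3.77 ± 0.478) with no overlap at any step. GJB2 (0.304 ± 0.0658) and GJA3 (0.242 ± 0.0355) overlapped, and GJB5 (0.102 ± 0.0367) was lowest of the counted genes. In the co-cultured knockout GJA1, at 21.3 ± 12.7, overlapped PANX2, at 10.5 ± 2.83, and GJB5, at 0.46 ± 0.0653, stood above GJB2, at 0.321 ± 0.016.

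The share of the summed connexin level held by GJA1 was higher in each knockout library than in each control library. All 21 connexin genes of the table summed to 45.7 ± 1.4 CPM per kb in the lone control, 45.4 ± 0.88 in the co-cultured control, 45.1 ± 5.46 in the lone knockout and 40.3 ± 10.6 in the co-cultured knockout. In the lone control GJB2 held 15.9 ± 1.51% of that sum, GJA1 13.9 ± 5.01%, GJC1 12 ± 1.54% and GJB5 9.83 ± 2.37%. The 15 connexins not drawn singly in the plot of shares held more of it together than any of these genes, at 27.9%, 40.2% and 42% in lone control replicates 1 to 3, against 1.33%, 1.82% and 2.1% in the lone knockout. In the lone knockout GJA1 held 63.1 ± 7.5%, GJD3 25.4 ± 7.31% and GJC1 8.35 ± 0.599%, and GJB2 was down to 0.669 ± 0.0889%. In the co-cultured knockout GJA1 held 44.2%, 37.2% and 68.4% of the sum in replicates 1 to 3. Without division by length GJB2 held 12.7% in the lone control and GJA1 67.5% in the lone knockout. The order in the lone control then differed, with means of 47.3 CPM for GJC1, 21.6 for GJA1 and 18.5 for GJB2. The 3 pannexins summed to 15.1 ± 0.819, 14.7 ± 1.61, 14 ± 1.18 and 16.3 ± 2.17 CPM per kb in the same order of groups.

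**Figure D4:**
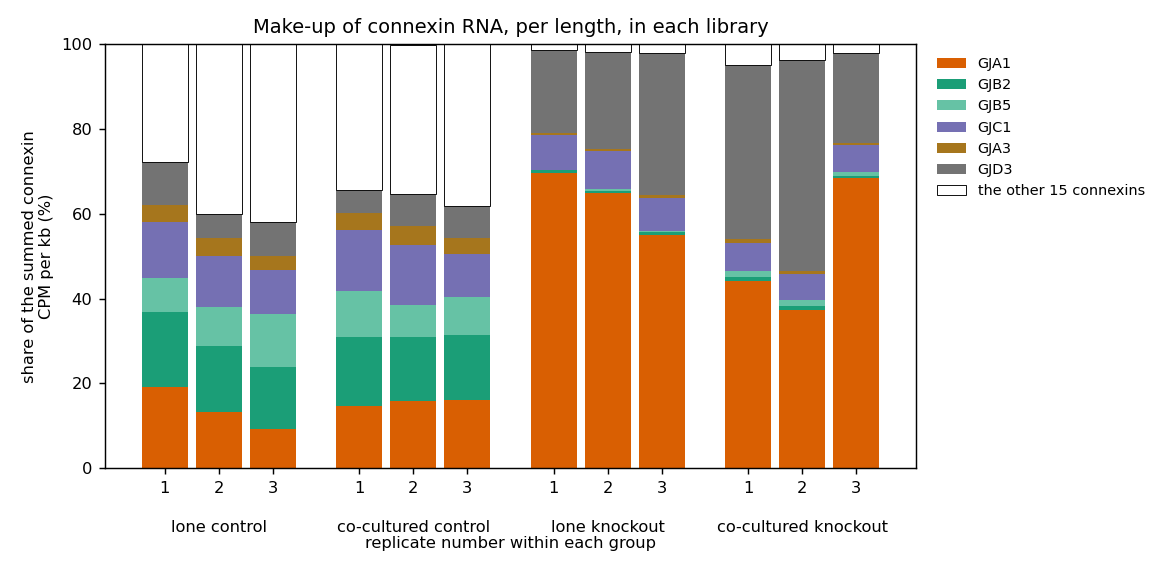
Share of the summed connexin CPM per kb (%) held by 6 connexin genes, and by all others together in white, in each of the 12 libraries (replicate numbers below the bars). GJB2, GJB5 and GJA3 are visible in each control bar and nearly vanish from the knockout bars, where GJA1 and GJD3 together fill most of the height.

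Of the 16 connexin and pannexin genes outside the set of 8, 4 passed the filter on low counts, GJD3 and GJC3 among them. In the lone knockout 1 of these 4 was called higher and 2 lower, with a median of -1.32, and in co-culture of the knockout 1 was called higher and 0 lower. Over all genes 28.0% were called higher and 28.6% lower in the lone knockout, with a median of 0.087. For co-culture of the knockout 5.97% of all genes were called higher and 5.40% lower. GJD3 rose by 1.65 in the lone knockout (SE 0.27, edgeR adjusted p = 0.00023), from 3.9, 2.28 and 3.33 CPM to 8.89, 8.41 and 12.7 CPM, and by 3.28 with GC offsets. Exons of GJD3 overlap those of its antisense partner GJD3-AS1, so its reads are uncertain. GJC3 did not pass in the lone knockout (-0.98, adjusted p = 0.166). It was lower in the co-cultured knockout than in the co-cultured control (-1.47, adjusted p = 0.0327), at means of 0.231 and 0.651 CPM. That call was lost by DESeq2 (adjusted p = 0.0529) and without co-cultured control replicate 2 (-0.80, adjusted p = 0.263) or co-cultured knockout replicate 1 (0.0773) or 3 (0.0822).

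Genes of 5 lists around these channels are described next, against 28.0% of all genes higher and 28.6% lower in the lone knockout and, for co-culture of the knockout, against 5.97% higher, 5.40% lower and a median over all genes of 0.012. Those whose proteins hold, traffic or remove connexins moved in both directions. Of 15 listed genes, all tested, 6 were higher and 6 lower in the lone knockout, with a median of 0.060. CDH2, or N-cadherin, whose adhesion accompanies gap junction assembly, rose by 2.96 (edgeR adjusted p = 1.27e-06), and CCN3, a secreted protein that binds Cx43, rose by 2.20 (adjusted p = 7.97e-06). TJP3 fell by 6.94 (adjusted p = 2.28e-09) and EZR, the membrane linker ezrin, by 1.63 (adjusted p = 2.32e-06). In the co-cultured against the lone knockout 1 of the 15 was called higher, TJP3 (1.97, SE 0.30, edgeR adjusted p = 0.00152), and 2 lower, with a median of -0.007. Those lower were TJP1, the ZO-1 scaffold that binds the tail of Cx43 (-1.52, adjusted p = 0.0133), and CDH2 (-0.97, adjusted p = 0.0271).

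Of 13 kinases known to phosphorylate Cx43, 4 were higher and 5 lower in the lone knockout, with a median of 0.077. The protein kinase C genes split: PRKCE rose by 1.49 (edgeR adjusted p = 2.81e-05) and PRKCA by 1.43 (adjusted p = 0.000126), and PRKCD fell by 1.06 (adjusted p = 1.8e-05). MAPK3, which encodes ERK1, fell by 1.59 (adjusted p = 6.26e-05). In co-culture of the knockout 2 of the 13 were called higher and 2 lower, with a median of 0.27. SRC (0.75, edgeR adjusted p = 0.0272) and CSNK1E (0.47, adjusted p = 0.0486) were higher, and PRKCA was among those lower (-1.24, adjusted p = 0.00398).

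Of 15 partners of pannexins and enzymes or receptors of extracellular ATP, 12 were tested, and 3 were higher and 6 lower in the lone knockout, with a median of -0.076. NT5E, the ectoenzyme that makes adenosine from AMP, rose by 1.83 (edgeR adjusted p = 1.11e-05), and the UDP receptor P2RY6 by 2.21 (adjusted p = 2.37e-05). ENTPD2, which splits extracellular ATP, fell by 6.56 (adjusted p = 4.89e-09), and the adenosine receptor ADORA2B by 2.37 (adjusted p = 2.12e-07). ENTPD2 had 4 to 7 counts per library in the lone knockout, so its fitted size depends on the prior count, as for GJB5. In the co-cultured against the lone knockout 2 of the 12 were called higher, among them the ATP-gated channel P2RX4 (0.90, edgeR adjusted p = 0.00898). The median of the 12 was 0.17.

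Other large-pore channels were also divided. Of 14 listed genes 11 were tested, and 4 were higher and 4 lower in the lone knockout, with a median of 0.26. LRRC8D and LRRC8C, subunits of volume-regulated anion channels, rose by 2.10 (edgeR adjusted p = 0.000368) and 1.20 (adjusted p = 0.026). LRRC8C was not called without lone control replicate 2 (adjusted p = 0.0933) or 3 (0.105) or lone knockout replicate 1 (0.0925). CALHM2, of the calcium homeostasis modulator channels, fell by 4.15 (adjusted p = 7.29e-09) and TTYH2, of the tweety family, by 1.95 (adjusted p = 4.01e-06). In co-culture of the knockout CALHM5 rose by 1.65 (adjusted p = 0.0229) and LRRC8B fell by 1.50 (adjusted p = 0.0411), and the median of the 11 was 0.15.

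Tunnelling nanotubes are thin membrane bridges that form a second contact route. Of 16 listed genes of their machinery, all tested, 5 were higher and 1 lower in the lone knockout, with a median of 0.81 against 0.087 over all genes. MYO10, the filopodial myosin, rose by 1.63 (edgeR adjusted p = 2.6e-05) and the small GTPase gene RALB by 0.95 (adjusted p = 3.54e-05). EXOC7, of the exocyst, fell by 0.49 (adjusted p = 0.0229), a call lost without lone control replicate 3 (adjusted p = 0.082) or lone knockout replicate 1 (0.0806), and stood at 0.042 with GC offsets. In co-culture of the knockout TNFAIP2, or M-Sec, rose by 1.13 (adjusted p = 0.00524) and MYO10 fell by 1.17 (adjusted p = 0.00387), and the median of the 16 was -0.32. Of the 11 genes named from these 5 lists for co-culture of the knockout, TJP3, PRKCA, MYO10 and TNFAIP2 were called whichever library was left out. For the remaining 7 the call was lost without at least 1 library, with adjusted p between 0.0519 and 0.188. Those libraries were lone knockout replicate 1 for P2RX4 (0.0519), that library and co-cultured knockout replicate 1 for TJP1 (0.0547 and 0.0801), and from 4 to 8 different libraries for the other 5. The highest of these adjusted p came without co-cultured knockout replicate 1 for CDH2 (0.126) and LRRC8B (0.168), without lone knockout replicate 1 for SRC (0.118) and CSNK1E (0.188), and without lone knockout replicate 2 for CALHM5 (0.0805). Fitted to the compared groups only, CDH2 (adjusted p = 0.0706), TJP1 (0.0612), SRC (0.0684), CSNK1E (0.1), CALHM5 (0.0553) and LRRC8B (0.0986) were not called. With the replicate number as a block the calls lost were CDH2 (0.0537), CSNK1E (0.0679), CALHM5 (0.0514) and LRRC8B (0.0823), and by library size alone CDH2 (0.0817) and LRRC8B (0.0919). CSNK1E was also not called with DESeq2 size factors (0.0532) or GC offsets (0.307). In the lone knockout GC offsets put TJP3 at -5.96, ENTPD2 at -5.58, CALHM2 at -3.46, MAPK3 at -0.77 and LRRC8C at 0.57, all still called.

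Genes whose group means followed GJA1 most closely were TSHZ3, TNFAIP8 and RHOQ, with root mean square differences of 0.049, 0.050 and 0.052 on the log2 scale over the 4 group means. TNFAIP8, for example, averaged 5.67 CPM in the lone control, 6.1 in the co-cultured control, 27.1 in the lone knockout and 17.9 in the co-cultured knockout. For GJB2 they were PTMAP5 (0.038), a pseudogene whose reads may come from its parent gene, FAM222A-AS1 (0.069) and ADGRL1 (0.079). For PANX1 they were BORCS5 (0.010), SPG7 (0.011) and NUDT16 (0.013), all nearly level across the groups. With 4 points each, these are descriptions of likeness in these libraries.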

How the data were processed

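Per the labels' protocols, miRNeasy columns and NEBNext Ultra RNA reagents were used to make the 12 libraries. The authors deposited 1 table of raw read counts per Ensembl gene. The submitters' processing notes name FastQC, STAR 2.7.9a, featureCounts, R 4.2.1, DESeq2 1.36.0 and GRCh38. The counting annotation and strand setting are not given in the sources used here. Columns were matched to samples by name.

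Symbols were found for 42045 of 61541 identifiers, and 58366 matched GENCODE 29, which gave positions, exon lengths and the GC content of the longest transcript. Promoters come from RefSeq on GRCh38.p14.

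In R 4.3.3, edgeR 4.0.16 kept 16768 genes (filterByExpr on the 4 groups), scaled by TMM and fitted 1 model of the 4 groups with robust quasi-likelihood. The biological coefficient of variation was 22.1%. A standard error is the fold change divided by the root of F. GC offsets were smoothing splines (6 degrees of freedom) of each library's log2 CPM deviations on GC content. Alternatives were DESeq2 1.42.0, DESeq2 size factors, library size only, no filter, the compared groups only, a replicate block, and leaving out each library. Scripts were tested on simulated counts. Between replicates the chi-square statistic of counts ran from 8.25 to 132 per gene, above the 1 that sampling noise gives, and each library was counted once. Shares and sums of connexins and pannexins use CPM per kb of merged exons, unless given without division by length. Sums of marker genes use CPM without division by length.

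The genes, lists, promoters and tests were chosen with earlier results of these data known. The naming rule took the 8 genes, TYMS, every other tested connexin or pannexin, the nearest tested genes beside GJA3, GJB2 and GJB6, the 3 genes closest in group means to GJA1, GJB2 and PANX1 (at least 5 CPM in 1 group), and from each of the 5 other lists up to 2 genes of smallest p in each direction, for the knockout alone and for its co-culture. Values of some genes under this rule or in the lists are not reported here. They remain in the counts, sums and medians of their lists.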

Additional observations from a re-analysis of the deposited data

Results flagged for a closer look

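By the interaction test of edgeR across all genes, the difference that went with co-culture was compared between knockout and control cells. This interaction passed the threshold for GJB5, TJP3 and TYMS, and for the marker CD14 (2.75, adjusted p = 0.0111). GJB5 had an interaction of 2.32 on the log2 scale (adjusted p = 0.0321). That call was lost with the replicate block (adjusted p = 0.0735) and without any of 8 libraries (adjusted p up to 0.131). TJP3 had an interaction of 2.25 (adjusted p = 0.00769) and was called under each alternative run. TYMS, the targeted gene, had an interaction of -0.89 (adjusted p = 0.0107), which was not called without a filter on low counts (-0.78, adjusted p = 0.103).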

How the results depend on the processing

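Depth limits GJB5 in the lone knockout, at 3 counts or fewer per library, and GJB6 throughout, and 3 libraries per group limit every test. Of 693 alternative values of the 7 tested genes, 618 kept their direction and side of the threshold, and 53 changed sign. A further 15 lost and 7 gained a call without a change of sign. For the other named genes the numbers were 914, 12, 62 and 5 of 993. Among the changes of sign, PANX2 in the knockout alone also gained a call with GC offsets (0.889, edgeR adjusted p = 1.83e-06). With the block added it did so as well (0.888, edgeR adjusted p = 1.78e-05). The cause of these changes was not tested. Scaling by library size alone moved the median of all genes in the knockout comparison alone by 0.16, to 0.24, and GC offsets moved it by -0.11 for co-culture of the knockout. There the share of calls that were higher was 52.5%, and it was 69.6% by library size alone and 37.7% with GC offsets. In the interaction it was 84.1%, and 45.5% with GC offsets.

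In correlations over all genes replicate numbers did not pair the libraries. Deviations of libraries with the same number correlated between -0.603 and 0.491, in 7 of 18 pairs above 0.1, and 1 of 12 libraries correlated best with its own number. The GC trend did follow replicate number in part. At PANX2 it rose from replicate 1 to 3 in the lone control, the lone knockout and the co-cultured control (-0.090, 0.24 and 0.58). In the co-cultured knockout it did not (-0.14, 0.14 and -0.76). With the replicate block 1080 genes were called for co-culture of the knockout and 179 for the interaction, in which 0 of the 7 genes was called (GJB5 2.31, adjusted p = 0.0735). With the block and GC offsets the genes called were 4065 and 724.

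For co-culture of the knockout 1907 genes were called, and 3340 without a filter, 664 with the compared groups only, 4769 with GC offsets, 3347 by DESeq2, and 536 to 5680 with 1 library left out. Of the 7 genes 1 was called, and 2 by DESeq2 and 0 to 3 with 1 library left out. For the interaction 301 genes were called, and 1342 without a filter, 1282 with GC offsets, 877 by DESeq2 and 119 to 3623 with 1 library left out, with 0 to 3 of the 7 genes. Co-culture of control cells called 2 genes without a filter.

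Signs changed as follows, with GC offsets first and the block added second. In the knockout alone PANX1 was -0.084 and -0.084, PANX2 0.889 and 0.888, and EXOC7 0.042 and 0.041. In the co-cultured knockout against control PANX1 was -0.157 and -0.142. In co-culture of control cells GJC1 was -0.024 and -0.025, PANX1 -0.046 and -0.044, PANX2 0.234 and 0.234, and GJD3 0.368 and 0.410. In the interaction GJA3 was 0.053 and 0.053, PANX2 -0.189 and -0.187, and GJD3 -0.313 and -0.348.

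By library size alone GJA3 was -0.050 in co-culture of the knockout, GJB2 0.019 and TYMS 0.032 in that of control cells, and GJB2 -0.017 in the interaction. With the compared groups only GJA3 was -0.001 in co-culture of the knockout. PANX1 there was 0.014 with DESeq2 size factors, 0.013 with DESeq2 and 0.084 without a filter, and in the interaction 0.001, 0.001 and 0.029.

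With 1 library left out the ranges that crossed 0 were as follows. PANX1 ran from -0.037 to 0.206 in the knockout alone, -0.157 to 0.127 in the co-cultured knockout against control, -0.154 to 0.064 in co-culture of the knockout, -0.082 to 0.184 in that of control cells and -0.236 to 0.031 in the interaction. GJA3 ran from -0.155 to 0.108, GJB2 from -0.085 to 0.241 and GJC3 from -0.546 to 0.083 in co-culture of the knockout, and PANX2 from -0.005 to 0.411 in the co-cultured knockout against control. In co-culture of control cells GJA1 ran from -0.051 to 0.437, GJB2 from -0.073 to 0.020, GJB5 from -0.303 to 0.084, PANX2 from -0.281 to 0.093, TYMS from -0.069 to 0.011 and GJC3 from -0.343 to 0.716. In the interaction GJB2 ran from -0.051 to 0.276 and GJC3 from -0.889 to 0.183.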
